A study of Mus musculus with 17 samples.

Results

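At 1002 of 34141 consensus sites of open chromatin in mouse macrophages, a peak ranked among the best 24389 of nearly all peak lists before lipopolysaccharide (LPS). After 1 h of LPS it was not among the best 24389 in nearly all lists, and after 18 h it was among them again in most. The sites were chosen by these measured values. Each of the 17 deposited ATAC-seq peak lists was cut to its 24389 best peaks, the number in the shortest list, and peaks that overlapped by at least 1 bp were merged into sites seen in at least 2 lists. A site belonged to the set when it carried a peak in at least 5 of the 6 lists at 0 h, in at most 1 of the 5 lists at 1 h and in at least 4 of the 6 lists at 18 h. The set made up 2.93% of all consensus sites. Presence by LPS time is therefore a description of how the sites were picked, and no test of it is given.

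The cells were bone marrow-derived macrophages (BMDMs) of male C57Bl6/J mice aged 6 to 12 weeks, differentiated for 7 days in medium conditioned by L929 cells. WT cells were compared with KO cells, in which Nr4a1, the gene of the orphan nuclear receptor Nur77, is deleted, at 0 h and after 1 h or 18 h with LPS at 100 ng/ml. The groups were WT at 0 h (n = 3), KO at 0 h (n = 3), WT at 1 h (n = 2), KO at 1 h (n = 3), WT at 18 h (n = 3) and KO at 18 h (n = 3), and 1 of the WT 1 h samples is named replicate 1-2. The labels give the genotype of the KO samples as cre. Per the study's methods, the KO allele was made in the whole body with a CMV-driven Cre that was later bred out, and the WT mice were littermates, so the loss of Nur77 also covers the marrow and the development of the mice and is not limited to macrophages. No source states that the samples of a group came from separate mice, so p-values measure the spread between samples, which may be technical.

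ATAC-seq reads out where the Tn5 transposase can reach DNA, which marks active promoters and enhancers. In macrophages the enhancer landscape is laid down by PU.1, an Ets family factor that defines the lineage, together with C/EBP, AP-1, Runx and Maf factors. LPS, sensed through Toll-like receptor 4, activates NF-kB and AP-1 (dimers of Fos and Jun proteins) within minutes. In a bulk sample, fewer cells with the site open and less opening per cell cannot be told apart.

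The sequences that carry the description are those of the distal sites (over 1 kb from the start of a protein-coding transcript) that were among the 12 best-ranked members, the 10 best-ranked of the strictest members (all 6 lists at 0 h, none at 1 h and all 6 at 18 h) or the 4 members with no entry of any rank at 1 h. Among the 22 such sites that lay in introns or between genes, 12 held letters of PU.1, C/EBP, MAF or AP-1 within 100 bp of the summit and 10 held none. The 12 are printed below as 201 bases around the summit, from the + strand of GRCm38 (mm10), RefSeq sequence, with the matched letters in capitals. Capitals mark GAGGAAGT (PU.1), TTACNNAA or TTGCNNAA (C/EBP), TGCTGAC (MAF) and TGACTCA or TGAGTCA (AP-1), on either strand. MAF and AP-1 letters can share bases, as they did at 6 of the 1002 sites. Each line gives the nearest protein-coding gene. PU.1 letters stood at the Zfp36l2, Rreb1, Vps9d1 and Fnip2 sites, C/EBP letters at the Rtp1, Gpx3, Arhgef2, Egfl7 and Eepd1 sites, both MAF and C/EBP letters at the Zdhhc14 site, and AP-1 letters at the Sh3gl1 and Dapp1 sites.
Zfp36l2 (chr17:84061726-84061926): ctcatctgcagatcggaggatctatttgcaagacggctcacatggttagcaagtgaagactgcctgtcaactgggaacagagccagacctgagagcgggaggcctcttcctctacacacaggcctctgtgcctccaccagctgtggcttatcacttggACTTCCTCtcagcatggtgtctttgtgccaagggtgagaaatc
Sh3gl1 (chr17:56031040-56031240): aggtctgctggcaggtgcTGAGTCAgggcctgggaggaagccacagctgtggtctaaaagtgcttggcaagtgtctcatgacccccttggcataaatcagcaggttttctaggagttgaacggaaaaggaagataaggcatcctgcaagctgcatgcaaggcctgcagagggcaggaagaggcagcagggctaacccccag
Rtp1 (chr16:23374939-23375139): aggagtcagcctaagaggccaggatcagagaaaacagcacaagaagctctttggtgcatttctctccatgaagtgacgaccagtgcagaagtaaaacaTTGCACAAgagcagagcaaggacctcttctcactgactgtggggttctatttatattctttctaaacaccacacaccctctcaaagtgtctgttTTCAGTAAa
Gpx3 (chr11:54884844-54885044): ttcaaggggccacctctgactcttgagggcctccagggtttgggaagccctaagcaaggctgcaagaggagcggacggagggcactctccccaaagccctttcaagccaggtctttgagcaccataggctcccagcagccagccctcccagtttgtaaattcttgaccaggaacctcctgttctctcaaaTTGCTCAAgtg
Zdhhc14 (chr17:5591643-5591843): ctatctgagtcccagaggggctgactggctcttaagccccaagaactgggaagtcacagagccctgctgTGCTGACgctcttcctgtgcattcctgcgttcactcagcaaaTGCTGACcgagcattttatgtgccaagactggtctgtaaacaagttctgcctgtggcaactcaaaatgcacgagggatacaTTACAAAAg
Arhgef2 (chr3:88618181-88618381): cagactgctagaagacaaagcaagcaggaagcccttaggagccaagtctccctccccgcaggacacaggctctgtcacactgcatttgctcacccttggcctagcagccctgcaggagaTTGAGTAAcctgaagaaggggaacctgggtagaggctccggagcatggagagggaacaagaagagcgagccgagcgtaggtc
Dapp1 (chr3:137952448-137952648): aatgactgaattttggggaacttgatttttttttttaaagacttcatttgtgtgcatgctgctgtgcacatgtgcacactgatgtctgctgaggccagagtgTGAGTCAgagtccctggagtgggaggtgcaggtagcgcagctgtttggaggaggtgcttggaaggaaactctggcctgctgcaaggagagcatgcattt
Egfl7 (chr2:26549920-26550120): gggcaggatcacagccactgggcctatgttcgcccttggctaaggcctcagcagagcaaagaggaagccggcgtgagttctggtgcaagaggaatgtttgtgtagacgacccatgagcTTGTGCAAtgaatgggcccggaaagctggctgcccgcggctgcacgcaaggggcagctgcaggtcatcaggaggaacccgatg
Rreb1 (chr13:37958587-37958787): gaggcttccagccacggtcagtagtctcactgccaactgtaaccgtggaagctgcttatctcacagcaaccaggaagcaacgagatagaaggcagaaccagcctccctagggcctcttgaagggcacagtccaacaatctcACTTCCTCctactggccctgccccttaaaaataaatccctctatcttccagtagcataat
Vps9d1 (chr8:123248624-123248824): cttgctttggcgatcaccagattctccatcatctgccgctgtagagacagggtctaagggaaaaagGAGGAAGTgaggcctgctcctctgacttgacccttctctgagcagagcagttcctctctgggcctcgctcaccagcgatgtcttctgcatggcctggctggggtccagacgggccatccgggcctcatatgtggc
Fnip2 (chr3:79539770-79539970): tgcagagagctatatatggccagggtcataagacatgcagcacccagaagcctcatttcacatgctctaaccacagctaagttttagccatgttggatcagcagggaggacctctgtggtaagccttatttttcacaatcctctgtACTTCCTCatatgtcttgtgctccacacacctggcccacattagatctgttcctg
Eepd1 (chr9:25570489-25570689): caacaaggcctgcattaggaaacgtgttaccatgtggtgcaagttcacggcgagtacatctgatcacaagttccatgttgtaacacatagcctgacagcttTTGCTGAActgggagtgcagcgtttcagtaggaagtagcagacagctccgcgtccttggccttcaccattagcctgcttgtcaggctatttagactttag

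The position of the matches differed between these sites. In the Rtp1, Eepd1 and Dapp1 windows a match lay at the summit, starting 2 bases before it, 1 base after it and 2 bases after it, respectively. In the Gpx3 window the C/EBP letters began 90 bases after the summit and in the Sh3gl1 window the AP-1 letters began 82 bases before it. Over the whole set the middle of the nearest PU.1 match lay a median of 33.5 bp from the summit (116 sites), compared with 38.5 bp over all consensus sites that had one (2686 sites). For C/EBP the medians were 40.5 bp (222 sites) and 41.5 bp (5820 sites), and for MAF 37.0 bp (83 sites) and 40.0 bp (2068 sites). AP-1 went the other way, with 37.0 bp (96 sites) and 33.0 bp (5462 sites). A match is a description of the letters and not of binding.

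Depth was uneven and moved in part with LPS time. The depth of each list, recovered as background reads per kb from the deposited fold and p-value columns, was 0.720 to 9.75 at 0 h, 0.382 to 4.14 at 1 h and 1.10 to 8.38 at 18 h. The deepest 1 h list, KO replicate 1 at 4.14, carried a peak among its best 24389 at 101 of the 1002 sites. KO 0 h replicate 3 at 0.720 carried one at 783 and KO 18 h replicate 2 at 1.10 at 770. The rule chose the sites on this presence, so these counts cannot show the part of depth. KO 18 h replicate 1, which held the fewest of the sites at 18 h (615), had narrow peaks with a median width of 135 bp against 338 to 661 bp in the other 16 lists. Without that list the rule gave 1172 sites, and without the 3 lists of lowest depth, an alternative added after the data were seen, it gave 1664. The limits moved with the number of lists left, so that sites of the set still met the rule. The larger numbers and the overlap of both sets with all 1002 sites thus follow largely from the rule. Without KO 1 h replicate 1 it gave 1364. The part of depth in the loss was not tested. Promoter peaks of the macrophage markers Spi1, Adgre1, Itgam and Mertk were in 17 of 17 lists and those of the 4 other markers in 12 to 16, while those of 11 markers of T cells, B cells, neutrophils and erythroid cells were in none. The coding exons of Nr4a1 carried a peak in 0 of 17 lists, so the genotype labels could not be checked there.

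Each list at 1 h, of both genotypes, held few of the sites among its best 24389 peaks, which the rule largely set. At 0 h a peak among the best 24389 was present at 980, 976 and 996 of the 1002 sites in WT and at 982, 921 and 783 in KO. At 1 h the numbers were 108 and 108 in WT and 101, 103 and 86 in KO. At 18 h they were 987, 952 and 935 in WT and 615, 770 and 808 in KO. As shares these were 98.2% ± 1.06 (SD, n = 3), 10.8% in both lists (n = 2) and 95.6% ± 2.65 (n = 3) in WT, and 89.4% ± 10.2 (n = 3), 9.65% ± 0.927 (n = 3) and 73.0% ± 10.2 (n = 3) in KO. Each list at 1 h held fewer of the sites than any list at 0 h or 18 h. These counts are the values that the rule used. Since 506 sites were in 1 list at 1 h, no list at 1 h could hold more than 506. With 628 sites in 6 of 6 lists at 0 h, no list at 0 h could hold fewer than 628. The low counts at 1 h thus follow from the rule.

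**Figure D1:**
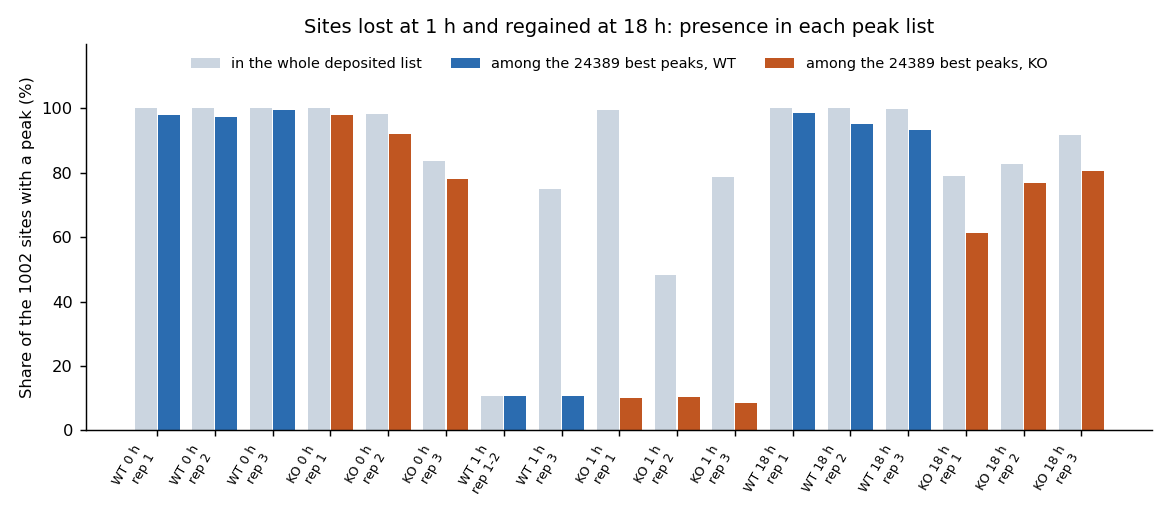
Share of the 1002 sites (%) with a peak in each of the 17 lists, by genotype, LPS time and replicate. Coloured bars count the 24389 best peaks (WT blue, KO orange) and grey bars the whole deposited list. The coloured bars lie between 8.58% and 10.8% at 1 h, whereas the grey bars reach 99.4% in KO 1 h replicate 1.

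Many of these sites still had an entry at 1 h in the longer lists. In the whole deposited lists, an entry of any rank, kept peaks included, was present at 1 h at 108 and 750 sites in WT and at 996, 483 and 790 sites in KO. Only 4 of the 1002 sites had no entry of any rank in all 5 lists at 1 h, and 53 had one in all 5. What differed was the rank. The median rank of the sites' peaks, with 1 the strongest peak of a list, was 18085, 18045 and 17650 in WT and 17785, 18293 and 17661 in KO at 0 h. At 1 h it was 29321 in WT replicate 3 and 29649, 28138 and 29899 in KO, over the sites with an entry. In WT 1 h replicate 1-2, whose whole list is the 24389 kept, it was 20698 over 108 sites. At 18 h it returned to between 16997 and 17585 over the 6 lists. The medians at 0 h and at 18 h thus lay inside the limit of 24389, and those of the 4 longer lists at 1 h lay outside it.

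**Figure D2:**
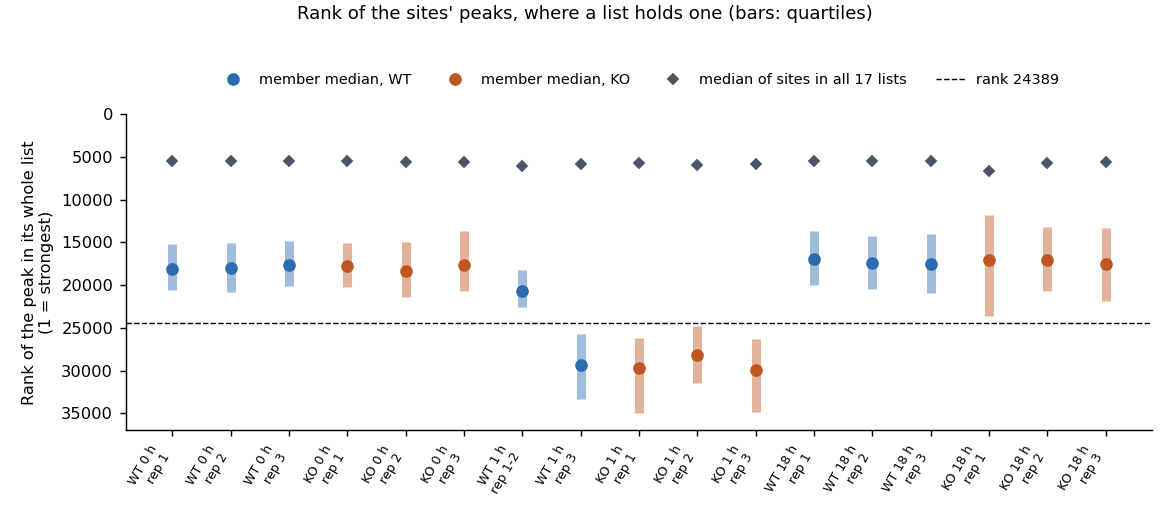
Rank of the sites' peaks in each whole deposited list (y axis, 1 is the strongest peak, downward is weaker), as the median (circles, WT blue and KO orange) and quartiles (bars) over sites with an entry, beside the median of the 10404 sites present in all 17 lists (diamonds). The circles lie above the dashed line at rank 24389 at 0 h and 18 h and below it in the 4 longer lists at 1 h, while the diamonds stay between 5460 and 6601.

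A rank is relative, and a lower rank through loss at the site or through gain elsewhere cannot be told apart from ranks alone. The pileup of reads at the summit over background, the fold column of the deposited lists, was also set against that of the 10404 sites present in all lists. At 0 h the median fold of the members was 0.355 to 0.391 of the median fold at those sites over the 6 lists. It was 0.245 in KO 1 h replicate 1, 0.256 in WT 1 h replicate 3 and 0.250 in KO 1 h replicate 3, and 0.389 to 0.556 at 18 h. In the remaining 1 h lists, which hold an entry at 108 and 483 of the sites, it was 0.417 and 0.333, but there the sites without an entry have no value. The fold and the p-value that ranks the peaks come from the same pileup, so the lower ratio at 1 h follows from how the sites were picked and does not separate loss at the site from gain elsewhere.

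The set stood beside other sites that were lost at 1 h. Of 20899 sites present in at least 5 of 6 lists at 0 h, 2139 (6.27% of all consensus sites) were in at most 1 of 5 lists at 1 h. Of these 2139 sites, 1002 (46.8%) were regained, 698 (32.6%) were still in at most 1 of 6 lists at 18 h, and 439 (20.5%) were in 2 or 3. Of all 20899 sites, 84.3% were in at least 4 lists at 18 h. Within the set, 628 sites were in 6 of 6 lists at 0 h, 496 in 0 of 5 at 1 h and 349 in 6 of 6 at 18 h. All of these held at 120 sites, the strictest ones. At the limits of the rule, 374 members were in 5 lists at 0 h against 223 sites in 4 that met the other criteria, 506 were in 1 list at 1 h against 646 in 2, and 292 were in 4 lists at 18 h against 242 in 3. Many sites thus lay just to either side of each limit.

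The set was mainly distal, but this depends on how a peak is counted: where a peak had to cover at least 50% of the site, 49.4% of the sites that met the rule were at promoters, against 31.6% of all sites. In the set as chosen, a promoter, with the summit within 1 kb of the start of a protein-coding transcript, was found at 159 sites (15.9%, 95% Wilson interval 13.7 to 18.3), compared with 30.3% of all consensus sites (29.8 to 30.8), 11.6% of the sites lost and still absent at 18 h (9.44 to 14.2) and 53.7% of the 15009 sites retained at all 3 times (52.9 to 54.5). Of the 843 distal members, 443 lay in introns, 365 between genes, 24 in untranslated regions and 11 in coding exons. The share over 10 kb from a start was 55.3%, against 46.8% of all sites. The median width of the sites was 1155 bp, against 1160 bp over all sites, and the median GC content around the summit was 51.2% against 52.2%. Since sites are not replicates, these shares are compared without a test. The Wilson intervals cover counting error only.

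Compared with all consensus sites, promoters included, AP-1 and NF-kB letters were scarce in the set and PU.1 and C/EBP letters more frequent. AP-1 letters stood within 100 bp of the summit at 96 of 1002 sites (9.58%, 7.91 to 11.6), against 16.0% of all sites (15.6 to 16.4). NF-kB letters stood at 14 sites (1.40%, 0.834 to 2.33), against 4.60% (4.38 to 4.83). PU.1 letters stood at 116 sites (11.6%, 9.74 to 13.7), against 7.87% (7.59 to 8.16). C/EBP letters stood at 222 sites (22.2%, 19.7 to 24.8), against 17.05% (16.7 to 17.4), and MAF letters at 83 sites (8.28%, 6.73 to 10.2), against 6.06% (5.81 to 6.32). Of the 1002 sites, 37.6% held at least 1 of PU.1, C/EBP and MAF, against 28.1% of all sites. Letters of the interferon-stimulated response element (ISRE) stood at 9 sites (0.898%) against 1.69%, those of the insulator protein CTCF at 16 (1.60%) against 2.79%, and AAAGGTCA, the monomer letters of Nur77 called NBRE, at 16 (1.60%, 0.985 to 2.58) against 0.999% (0.899 to 1.11).

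At distal sites alone, AP-1 letters stood at 11.0% of 843 members (9.09 to 13.3), 21.3% of 23808 sites (20.8 to 21.9) and 25.1% of the 6948 retained sites (24.1 to 26.1). NF-kB letters stood at 1.30%, 4.94% and 5.12% of the same sets, PU.1 letters at 12.8% (10.7 to 15.2), 9.92% (9.54 to 10.3) and 10.7% (9.99 to 11.4). The C/EBP share, 23.5% (20.8 to 26.5), lay closer to the 20.997% (20.5 to 21.5) of all distal sites than it did with promoters included. Of the retained distal sites, 20.5% (19.6 to 21.5) held C/EBP letters. For both PU.1 and C/EBP the intervals of distal members and retained distal sites overlapped. KLF/SP letters (GGGCGG), typical of CpG-rich promoters, stood at 11.7% of members and 21.9% of all sites, but at 6.05% and 7.42% of the distal ones. Under an alternative that counted a peak only where it covered at least 50% of the site, 952 sites met the rule, and C/EBP letters stood at 14.1% of them against 16.98% of all sites, so the direction turned. MAF letters stood at 5.88% of them against 6.00% of all sites, which also turned, and PU.1 letters at 7.88% against 7.75%. AP-1 and NF-kB shares stayed below those of all sites there, at 10.2% and 2.52%.

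Between regained sites and sites that stayed lost, C/EBP letters had intervals that did not overlap, and AP-1, NF-kB, PU.1, RUNX and CTCF letters had intervals that did. At distal sites C/EBP letters stood at 23.5% of the regained sites (20.8 to 26.5) and at 16.9% of the 617 that stayed lost (14.1 to 20.01). AP-1 letters stood at 11.0% and 7.62% (5.78 to 9.98), NF-kB letters at 1.30% (0.730 to 2.32) and 1.13% (0.551 to 2.32), and PU.1 letters at 12.8% and 13.1% (10.7 to 16.0). RUNX letters (TGTGGTT) stood at 7.95% (6.31 to 9.97) and 11.0% (8.79 to 13.7), and CTCF letters at 1.66% (0.992 to 2.77) and 3.73% (2.50 to 5.53). Sites lost at 18 h only had another profile, with AP-1 letters at 29.2% (25.6 to 33.2) and C/EBP letters at 14.1% (11.4 to 17.2) of 554 distal sites. The 833 distal sites that missed the rule by 1 list had AP-1 letters at 15.0% (12.7 to 17.6), NF-kB letters at 0.960%, PU.1 letters at 13.3% and C/EBP letters at 21.7% (19.1 to 24.7).

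**Figure D3:**
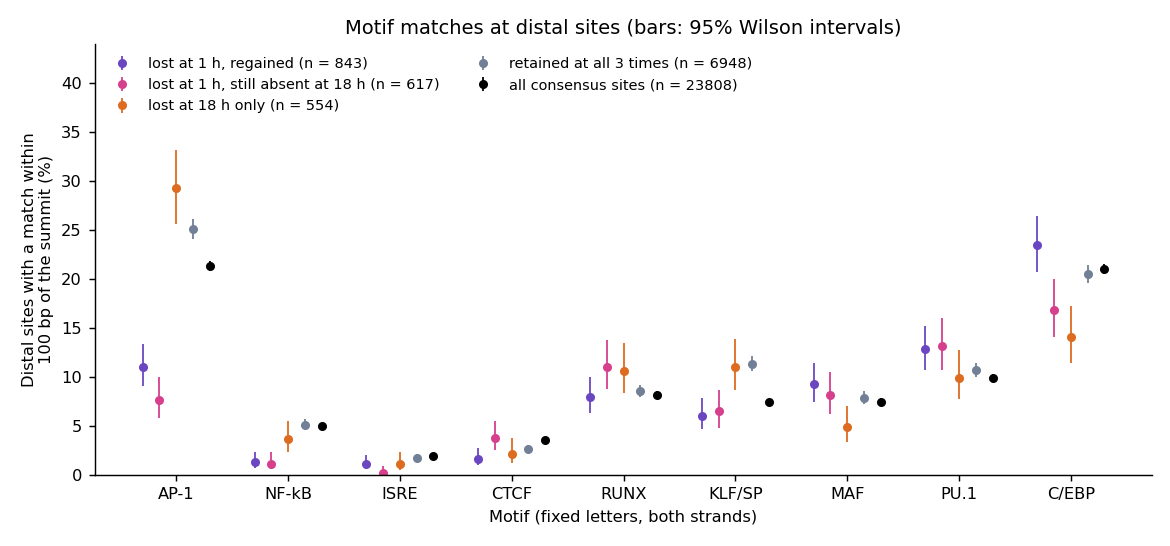
Share of distal sites (%) with letters of each motif within 100 bp of the summit, for the 843 regained sites (purple), the 617 lost and still absent at 18 h (pink), the 554 lost at 18 h only (orange), the 6948 retained (grey) and all 23808 (black), with 95% Wilson intervals. At AP-1 the regained sites lie at 11.0%, between 7.62% and 21.3%, and at C/EBP at 23.5%, above the 16.9% of the sites that stayed lost.

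The 12 best-ranked members lay in introns or between genes, each over 1 kb from a start. The best mean rank over the lists at 0 h and 18 h, 6385, belonged to a site between genes on chromosome 17, from 84061289 to 84062607, 126 kb from the start of Zfp36l2, which encodes an RNA-binding protein that promotes the decay of AU-rich mRNAs. Its peak ranked 6584, 6559 and 9561 in WT and 8370, 8954 and 12719 in KO at 0 h. At 1 h it was in neither WT list and ranked 35179, 26428 and 33513 in KO, and at 18 h it ranked 4197, 3793 and 3671 in WT and 3297, 3243 and 5674 in KO. All 6 ranks at 18 h were better than all 6 at 0 h. The reads at its summit, recovered from the same columns and not adjusted for depth, were 165, 134 and 197 in WT and 171, 33 and 12 in KO at 0 h, 21, 5 and 7 in KO at 1 h, and 189, 119 and 89 in WT and 24, 27 and 27 in KO at 18 h. A further 2 members were nearest to the same gene, at 73.8 and 84.4 kb.

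An intron of Arhgef2, which encodes the microtubule-bound exchange factor GEF-H1, held a site on chromosome 3 from 88617822 to 88618824 with a like course. It ranked 12940, 13189 and 12194 in WT and 13397, 8672 and 23158 in KO at 0 h. At 1 h it was absent from WT replicate 1-2 and ranked 23806 in WT replicate 3 and 25804, 27110 and 28066 in KO. At 18 h it ranked 4654, 3872 and 4590 in WT and 2334, 5765 and 3972 in KO, each better than any rank at 0 h. The Egfl7 site, between genes on chromosome 2 from 26549355 to 26550820, ranked 11852 to 15290 at 0 h, 25061 and 27053 in the only lists at 1 h with an entry, and 3713 to 6964 at 18 h. The Zfp503 site, on chromosome 14 from 21999315 to 22000247, ranked 12491 to 17621, 24929 at best, and 3877 to 6005 at the same times.

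Other leading members came back less far. A site in an intron of Dis3l2, an RNA exonuclease gene, on chromosome 1 from 87035246 to 87036744, ranked 5630, 5662 and 5937 in WT and 5190, 5598 and 2517 in KO at 0 h. It ranked 13002 and 30010 in WT and 29353, 28817 and 32019 in KO at 1 h, and 6444, 7545, 6903, 12276, 6511 and 9400 in the WT and then KO lists at 18 h. The nearest start is that of Alppl2, 54.0 kb away. Every rank of this site at 18 h was worse than every rank at 0 h, as was the case for the sites in Sh3gl1 (endophilin A2, which shapes membranes in endocytosis; 3828 to 6110 and then 6473 to 12831), beside Rtp1 (3493 to 4822 and then 6830 to 15714) and at the Arhgap25 promoter. The site at Arhgap25, which encodes a Rac GTPase-activating protein of blood cells, ranked 4310 to 8109 at 0 h, 23970 at best at 1 h and 16463 at best at 18 h, with no entry in 2 KO lists at 18 h.

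**Figure D4:**
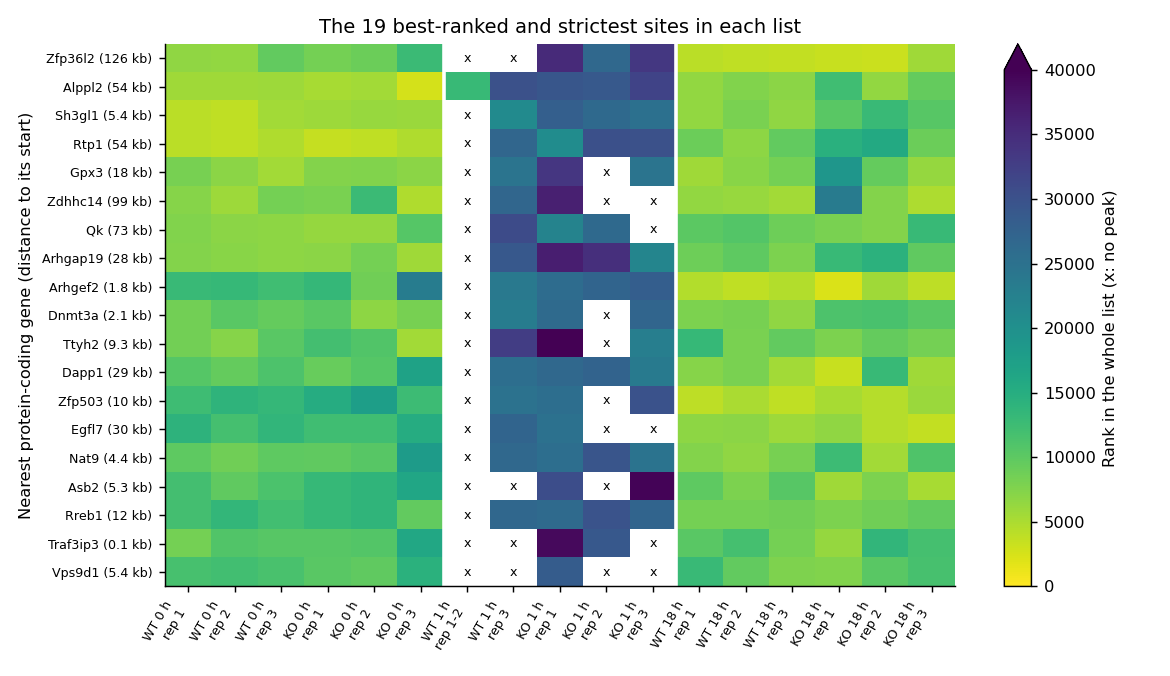
Rank in the whole list (colour, yellow is strongest, cross is no peak) of the 19 sites that had the best mean rank or were the best-ranked strictest sites (rows, by nearest gene and distance to its start) in the 17 lists (columns). The columns at 1 h are dark or crossed in nearly all rows, and the Zfp36l2, Arhgef2, Zfp503 and Egfl7 rows are brighter at 18 h than at 0 h.

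Ranks at 18 h lay to either side of those at 0 h. The median rank at 18 h was better than that at 0 h at 508 of 1002 sites (50.7%), against 41.6% of all consensus sites and 43.4% of the 17626 sites present in at least 5 lists at 0 h and 4 at 18 h. Every rank at 18 h was better than every rank at 0 h at 57 sites (5.69%), against 7.16% of all consensus sites and 4.94% of the 17626. The reverse held at 44 sites (4.39%), against 9.21% and 7.06%. By the median rank the members' share lay above both backgrounds, and by the ranks without overlap it lay between them for 18 h and below both for 0 h. Sites with every rank better at 18 h included those of Laptm5, a lysosomal membrane protein of blood cells (13832 to 18886 at 0 h and 4111 to 9352 at 18 h), Tfeb and Cd5l, a scavenger receptor-like protein secreted by macrophages (13664 to 21113 and 6111 to 13264). Laptm5 and Tfeb were named by rule and Cd5l was chosen after its values were seen. C/EBP letters stood at 17 of the 57 (29.8%, 19.5 to 42.7), 9 of the 44 (20.5%, 11.2 to 34.5) and 196 of the 901 others (21.8%, 19.2 to 24.6), intervals that overlap.

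Tfeb, the transcription factor that drives lysosome biogenesis, held a site of each kind in its introns. The site on chromosome 17 from 47783933 to 47785039 ranked 18006, 15679 and 17301 in WT and 21174, 30760 and 16661 in KO at 0 h, against 7564, 9470 and 6973 in WT and 5288, 10662 and 7899 in KO at 18 h. The site from 47759142 to 47760641 ranked 8421, 7401 and 8462 in WT and 10410, 11311 and 11586 in KO at 0 h, against 19262, 22072 and 17742 in WT and 17071, 14189 and 13022 in KO at 18 h. The ranks at 1 h were 22648 at best in the first and 23532 at best in the second.

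By nearest gene, the share of members in the gene lists given here ran from 0.556% to 5.48%, on small counts and with no test. No list given here was set apart from all consensus sites by its interval. The share of members in each gene list, drawn up with earlier results known, is read against 2.93% of all consensus sites. Members were 8 of 146 sites near scavenger and phagocytic receptors (5.48%, 95% Wilson interval 2.80 to 10.4), 5 of 93 near nuclear receptors and corepressors (5.38%, 2.32 to 12.0), 10 of 193 near cholesterol, lipid and lysosome genes (5.18%, 2.84 to 9.27) and 9 of 178 near chemokine receptors and integrins (5.06%, 2.68 to 9.33). They were 2 of 177 near LPS sensing and NF-kB genes (1.13%, 0.310 to 4.03), 1 of 149 near inflammatory cytokines and chemokines (0.671%, 0.119 to 3.70) and 1 of 180 near interferon response genes (0.556%, 0.0981 to 3.08). The interval of each of these lists included 2.93%. Of the 8 sites of the scavenger and phagocytic list, 6 were nearest to Dock1, Dock2 (2 sites) and Dock8 (3 sites), which encode exchange factors for Rac and Cdc42 that act in engulfment and migration, and the others to Mrc1 and Lrp1. The remaining lists held 4 of 124 (3.23%, cell cycle), 5 of 104 (4.81%, inhibitory and activating immune receptors), 6 of 129 (4.65%, cytokine receptors), 8 of 394 (2.03%, MAP kinase and PI3K signalling) and 4 of 207 (1.93%, immediate-early genes).

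**Figure D5:**
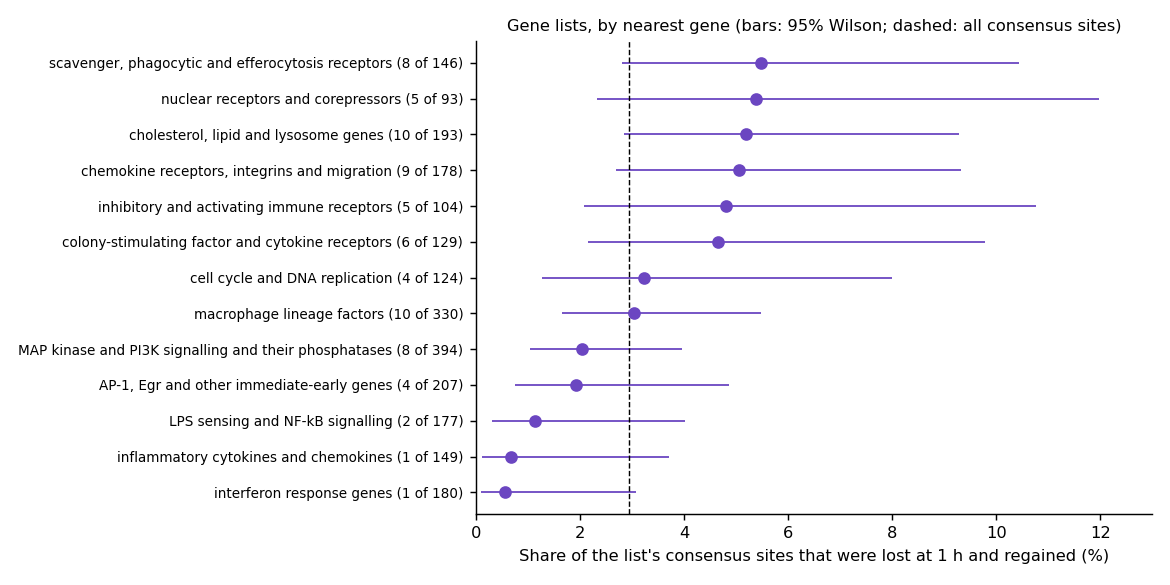
Share (%) of the consensus sites nearest to the genes of each list that were lost at 1 h and regained (points, with 95% Wilson intervals and counts in brackets), with the 2.93% of all consensus sites dashed. The points run from 0.556% (interferon response genes) to 5.48% (scavenger and phagocytic receptors), and every interval drawn includes the dashed line.

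Among lineage factors, 10 of 330 sites (3.03%) were members, 3 of them nearest to Maf, a factor of resident macrophages, 2 to Tfeb, 2 to Zeb2, and 1 each to Mef2c, Bach1 and Cebpb. The Maf sites lay 94.8, 125 and 431 kb from its start, the last in an intron of Wwox. The first of them by rank, on chromosome 8 from 115276173 to 115276647, ranked 12084 to 20197 at 0 h and 4575 to 13574 at 18 h and was in 1 of the 5 kept lists at 1 h. Nuclear receptor sites included those of Pparg (2 sites) and Ppard, receptors for fatty acids, and of Rxra, their dimer partner. The Pparg promoter site, on chromosome 6 from 115360730 to 115362575, ranked 10988 to 19105 at 0 h, 28542 at best at 1 h, and 18779, 18918 and 20087 in WT at 18 h, with KO ranks of none, 24111 and 29922. The Rxra intron site, on chromosome 2 from 27716012 to 27717225, had an entry in 1 whole list at 1 h, at rank 57678.

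Lipid and lysosome genes with a member were Soat1 (2 sites), which esterifies cholesterol, Plin2 (2 sites), which coats lipid droplets, Hmgcs1 of cholesterol synthesis, the cholesterol exporter Abcg1, Npc2 and Psap of the lysosome, Acsl1, which activates fatty acids, and Lpcat2. The best ranked lay 23.0 kb from Hmgcs1, in an intron of Nim1k on chromosome 13 from 119712502 to 119714004, and carried MAF letters. It ranked 11284, 13480 and 10538 in WT and 10241, 7616 and 11442 in KO at 0 h, 24966 at best at 1 h, and 10106, 12896 and 9844 in WT and 27077, 12651 and 10342 in KO at 18 h. The rank of 27077 belonged to KO replicate 1, the list of narrow peaks.

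Receptors with a member included Mrc1 (the mannose receptor CD206), Lrp1, Siglec1 (CD169), Ifngr1 and Ifngr2 (both chains of the interferon-gamma receptor), Il6st and Csf2rb2. The Mrc1 intron site, on chromosome 2 from 14249802 to 14250632, ranked 9860 to 16105 at 0 h, 17041 at best at 1 h and 12655 to 28055 at 18 h. The Siglec1 promoter site ranked 9142 to 15030 at 18 h and 18624 at best at 0 h, where KO replicate 3 had no entry. Genes given here without ranks were picked from the lists after their counts were seen. Members of the inflammatory, LPS sensing and interferon lists were Il12b, which encodes the p40 subunit of IL-12 and IL-23, Irf5, Tlr7 and Nfkbiz. The Il12b site, 14.9 kb from its start on chromosome 11 from 44414505 to 44415541, ranked 15115 to 19635 at 0 h with no entry in KO replicate 3, 26870 at best at 1 h and 12373 to 30598 at 18 h. Fos, an AP-1 subunit induced at once by LPS, was the nearest gene to 1 member, 36.2 kb away.

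The 1002 sites were spread over 910 nearest genes, of which 831 had 1 member, 69 had 2, 7 had 3 and 3 had 4. Those with 4 were Slc16a7, a monocarboxylate transporter, Rere, a nuclear receptor corepressor, and Rreb1, a zinc finger factor of Ras signalling. Those with 3 were Zfp36l2, Maf, Dock8, Hmbox1, Dnmt3a, Prex1 and Svil. At Slc16a7 the 4 sites ranked between 6357 and 23942 where present at 0 h and all held C/EBP letters within 100 bp of their summits. At Dnmt3a, a de novo DNA methyltransferase, the 3 sites lay in introns within 2.08 kb of an annotated start on chromosome 12, and none held PU.1, C/EBP, MAF or AP-1 letters. Genes with long flanks collect more sites, and the part of gene size in these counts was not tested.

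Members had another member nearby at a higher share than all distal sites did, and a site that opened nearby at a lower one. Another member lay within 50 kb of 145 of 843 distal members (17.2%, 14.8 to 19.9), and a member lay within 50 kb of 12.4% of all distal sites (12.0 to 12.8) and 14.1% of those that stayed lost (11.6 to 17.1), an interval that overlaps that of the members. A site that opened at 1 h (at most 1 of 6 lists at 0 h and at least 4 of 5 at 1 h, 2024 sites) lay within 50 kb of 139 distal members (16.5%, 14.1 to 19.1), against 23.1% of all distal sites (22.5 to 23.6) and 14.6% of those that stayed lost (12.0 to 17.6). A site present in all lists lay within 50 kb of 66.5% and 66.1% of members and all distal sites.

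The same course was seen at 159 promoter sites. Among the best ranked were those of Dusp18, a dual-specificity phosphatase, Pctp, a phosphatidylcholine transfer protein, Cd300c2, an activating myeloid receptor, and Traf3ip3. The Traf3ip3 promoter, on chromosome 1 from 193200427 to 193202101, met the strictest form of the rule. It ranked 8302, 10807 and 10339 in WT and 10384, 10733 and 16082 in KO at 0 h. It had an entry in 2 whole lists at 1 h, at 38964 and 28992 in KO replicates 1 and 2, and ranked 10307, 11820 and 8350 in WT and 6270, 13651 and 11789 in KO at 18 h. The Cd300c2 promoter ranked 7468 to 12401 at 0 h, 25468 at best at 1 h and 8864 to 21323 at 18 h.

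The 4 sites without an entry of any rank at 1 h were of middling strength at other times. They lay in introns of Fnip2 (a folliculin partner in nutrient sensing), Pmf1 and Eepd1, and 1.04 kb from the start of Apoc1, an apolipoprotein of macrophages and liver. The Fnip2 site, on chromosome 3 from 79539384 to 79540561, ranked 20759, 18541 and 18042 in WT and 16181, 13438 and 20898 in KO at 0 h, and 20538, 15087 and 19948 in WT and 10368, 8184 and 8531 in KO at 18 h. It was the only one of the 4 in the strictest group.

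KO and WT could not be compared by a test at the members. Presence was compared between genotypes at each consensus site with a two-sided exact permutation test that exchanged genotype within LPS time, with Benjamini-Hochberg adjustment over all 34141 sites. No site passed (0%), and at an unadjusted p under 0.05 KO was lower at 247 sites (0.723%) and higher at 119 (0.349%), with 0.00025 the smallest unadjusted p of this exact test. The rule, however, selected the members on the same presence that the test uses, so that a member can miss at most 1 list at 0 h and 2 at 18 h. The smallest unadjusted p among members was 0.04 in this exact test, and a call was out of reach for them. The absence of a called member is thus set by the rule and says nothing on genotype.

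More members were found in all WT lists than in all KO lists, at 0 h and at 18 h. At 18 h, 875 members had a peak in all 3 WT lists and 383 in all 3 KO lists, and at 0 h, before LPS, 948 and 682. At 1 h, 786 members were in neither of the 2 WT lists and 712 in none of the 3 KO lists, counts that are not alike because absence from more lists is harder to meet. Of all consensus sites, the KO lists held 63.2% to 69.8% at 0 h against 68.7% to 70.4% in WT, ranges that overlap. At 18 h the KO lists held fewer of them, 56.2% to 64.0% against 67.6% to 70.4%. At 0 h the KO lists with 921 and 783 members had depths of 1.53 and 0.720 background reads per kb, while the KO list with 982 had 7.65, within the 5.11 to 9.75 of WT. The KO lists at 18 h had depths of 1.10 to 1.76 background reads per kb against 4.62 to 8.38 in WT, and 1 of them had the narrow peaks, so genotype and depth cannot be told apart at 18 h. Applied to WT lists alone (3 of 3, 0 of 2 and at least 2 of 3 lists), the rule gave 1576 sites, and to KO lists alone (3 of 3, 0 of 3 and at least 2 of 3) 497, which overlapped 744 and 382 of the 1002 sites.

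The members depend on the number of peaks kept. With the 20000 best peaks of every list the rule gave 851 sites, which overlapped 352 of the 1002, and with the 10000 best it gave 470, which overlapped 6. With all deposited peaks it gave 1084, which overlapped 79. The set is thus the group of sites that crossed rank 24389, and other limits picked other sites with AP-1 shares of 7.87% to 8.93%, each below that of all sites at the same limit.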

How the data were processed

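Libraries of 17 BMDM samples were trimmed with cutadapt 2.6 and mapped to mm10 by the authors, who called peaks separately for each sample (mapping quality of at least 20, mitochondrial reads and duplicates removed, q under 0.001). The deposited lists give each peak a −log10 p-value and a fold, the pileup at the summit over background, and no counts per site, so the authors' comparison in DiffBind 3.0.15 was not refitted. From these, identical intervals were collapsed to the highest −log10 p, the best 24389 of every list were kept, and intervals sharing 1 bp were merged. Genes came from GENCODE M21 and sequence from RefSeq GRCm38. A promoter summit lay within 1 kb of a protein-coding start. Motifs were searched within 100 bp of the summit, on both strands. Intervals are 95% Wilson intervals. Depth was recovered as the background at which fold and p give whole reads (tolerance 0.05). The genotype test was an exact permutation test per site, tested on simulated data. Members and gene lists were chosen with earlier results of these data known. A gene list and some genes are not reported here. Sites were named by fixed rules: the 12 best mean ranks, the 10 best strictest sites, sites with no entry at 1 h, up to 4 a gene list, 8 promoters, and genes with 3 or more members. Alternatives changed the number kept, the overlap, the limits, the lists and the motif window. Python 3.11.15, numpy 2.4.6, pandas 2.3.3 and scipy 1.17.1 were used.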

Additional observations from a re-analysis of the deposited data

How the results depend on the processing

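The number of sites and the shares depend on how the lists are cut. With the 10000 best peaks there were 470 sites, 46.8% at promoters (all sites at the same limit 50.9%). Their letters were 7.87% AP-1 (all sites 14.0%), 2.34% NF-kB (5.19%), 8.94% PU.1 (6.29%) and 14.7% C/EBP (14.03%). With the 20000 best, 24.1% were at promoters (all sites 34.8%), and with all deposited peaks 4.61% (17.1%), with 25.6% C/EBP (17.6%). Where a peak had to cover 50% of the site, 49.4% were at promoters (all sites 31.6%), with 2.52% NF-kB, 7.88% PU.1 (7.75%), 14.1% C/EBP (16.98%) and 5.88% MAF (6.00%). The strictest 120 sites had 12.5% promoters, 6.67% AP-1, 0% NF-kB, 25% C/EBP and 11.7% MAF. WT lists alone gave 1576 sites and KO lists alone 497, the latter with 5.43% AP-1 (all sites 15.7%). Within 50 bp of the summit the shares were 5.79% AP-1 (all sites 10.6%), 0.798% NF-kB (2.68%), 7.39% PU.1 (4.66%), 12.7% C/EBP (9.46%) and 4.69% MAF (3.51%). Without the 3 lists of lowest depth, chosen after seeing the data, there were 1664 sites, 20.4% at promoters. Leaving out 1 list at a time gave 1035 to 1364 sites and 15.4% to 20.1% promoters. In the runs without lists the limits loosened with the lists left out, so a larger number follows largely from the rule. Each cause was not tested, except that a narrower window holds fewer letters. AP-1 and NF-kB shares stayed below those of all sites under each of the 8 alternatives set beside all sites.

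Same-numbered KO and WT lists did not deviate together (r from −0.0408 to 0.00391 over 7 pairs), so this check gave no sign that the numbers pair the samples. It rests on presence in small groups of lists of uneven depth and cannot exclude pairing. With the replicate number as a block, 0 sites were called and 52 had an unadjusted p under 0.05, with 0.0156 the smallest p this exact sign-flip test can give, too large to pass the adjustment at a single site. No other alternative called a site, with 202 to 1132 sites at an unadjusted p under 0.05.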
